A study of Mus musculus with 10 samples.

Results

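The genes described are 9 enzymes of methyl group and nicotinamide metabolism in the livers of mice with lung cancer: Mat1a, Gnmt, Ahcy, Bhmt, Cbs, Pemt, Nnmt, Nampt and Nadk. They were chosen by name, with earlier results of these data known. All 9 were found among the 43629 genes of the count table and passed the filter on low counts. The livers came from 5 NCACS and 5 CACS male KL mice, a lung cancer model that carries Lkb1 flox/flox among its alleles. The mice were backcrossed to FVB and received adenovirus encoding Cre under the CMV promoter through the nose as adults. Both groups carried the same alleles and received the same virus, and no liver from a mouse without tumour induction was analysed here. Body weight was down by 29 to 33% in the CACS (cancer anorexia–cachexia syndrome) mice and by 3 to 14% in the NCACS mice, which did not meet the study's definition of cachexia. The recombinase was delivered to the airways, so the liver itself was not the target. The hour of collection and a preparation batch were not given in the sources used here, and the study's other liver libraries were not analysed here.

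In the methionine cycle, methionine adenosyltransferase joins methionine to ATP and makes S-adenosylmethionine, the methyl donor of the cell. Methyltransferases such as GNMT, PEMT and NNMT pass the methyl group to glycine, phosphatidylethanolamine and nicotinamide, and the product left behind is split by AHCY to give homocysteine. Homocysteine is turned back into methionine by BHMT, which uses betaine, or enters transsulfuration through CBS. Nicotinamide is also the substrate of NAMPT, the rate-limiting enzyme of NAD salvage, so NNMT and NAMPT draw on a shared pool, and NADK turns NAD into NADP. The liver carries out much of the methionine metabolism of the body.

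Total counts per liver ranged from 31459179 to 40746178. Levels are given as CPM, counts scaled to a common library size, after TMM normalization, which scales each library by a factor that was between 0.958 and 1.07 here. Each gene was tested by the quasi-likelihood method of edgeR, and a gene was called where its p-value, adjusted by Benjamini-Hochberg over all 14143 genes tested, was under 0.05. The 5 hepatocyte markers were abundant, as a liver should show, with a summed level of 61619 to 110736 CPM in NCACS livers and 102533 to 128742 CPM in CACS livers. The fold change was above 0 for 4 of them, with a median of 0.44 on the log2 scale, and Hnf4a, a transcription factor of hepatocytes, rose in CACS livers (log2 fold change 0.50, edgeR adjusted p = 0.0435). All 5 Kupffer cell markers had fold changes below 0, with a summed level of 144 to 228 CPM in NCACS and 79.8 to 163 CPM in CACS livers, and 1 of them, Cd5l, fell (-0.90, edgeR adjusted p = 0.0374). Of the 10 fits that each left out 1 mouse, the call of Hnf4a held in 1 and that of Cd5l in 2, with log2 fold changes of 0.45 to 0.56 and -1.01 to -0.78. The adipocyte markers, from a cell type that also expresses Nnmt and Nampt, had fold changes above 0 for all 4 of 5 that were tested, none past the threshold, and a median of 0.77 on the log2 scale. They summed to 11.9 CPM in NCACS mouse 11, to 3.81 to 5.33 CPM in the other NCACS livers and to 7.02 to 14.3 CPM in the CACS livers. All 3 leukocyte markers tested had fold changes below 0 with an unadjusted p under 0.05, none past the threshold (Ptprc -0.68, Cd79a -1.14 and S100a8 -1.79 on the log2 scale), and summed to 8.33 to 21.2 CPM in NCACS and 5.14 to 12.4 CPM in CACS livers. An unadjusted p under 0.05 in edgeR was reached by 21.6% of all genes. Among the other markers 3 Kupffer cell, 2 hepatocyte, 2 adipocyte, 1 cholangiocyte and 1 exocrine pancreas marker reached it. Fold changes were above 0 for all 5 endothelial and 4 of 5 stellate cell markers and below 0 for 4 of 5 cholangiocyte markers, again with none past the threshold. Of the 5 exocrine pancreas markers 4 were removed by the filter and the other, Cela2a, did not pass. The part of these markers in the results below was not tested, and in whole liver fewer cells of a type and less RNA per cell cannot be told apart.

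Mat1a and Nampt rose in CACS livers, to 2.33 and 2.23 times their NCACS means, and no member fell past the threshold. Of the 9 genes, 2 were called as higher, where 1.89% of all genes tested were, 1.92% were called as lower and 3.8% were called in either direction. The fold change was above 0 for 7 members and below 0 for 2, where 49.4% of all genes tested were above 0. The median log2 fold change was 0.25 over the members and -0.01 over all genes tested. The groups did not overlap for 1 member, Mat1a, where 7.07% of all genes showed no overlap. An unadjusted p-value under 0.05 was reached by 3 members, Mat1a, Nampt and Ahcy, and by 21.6% of all genes. Since the members were chosen with earlier results known, these shares are a description and not a test of the list. Ahcy had the next largest fold of means, 1.58, but did not pass after adjustment.

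**Figure D1:**
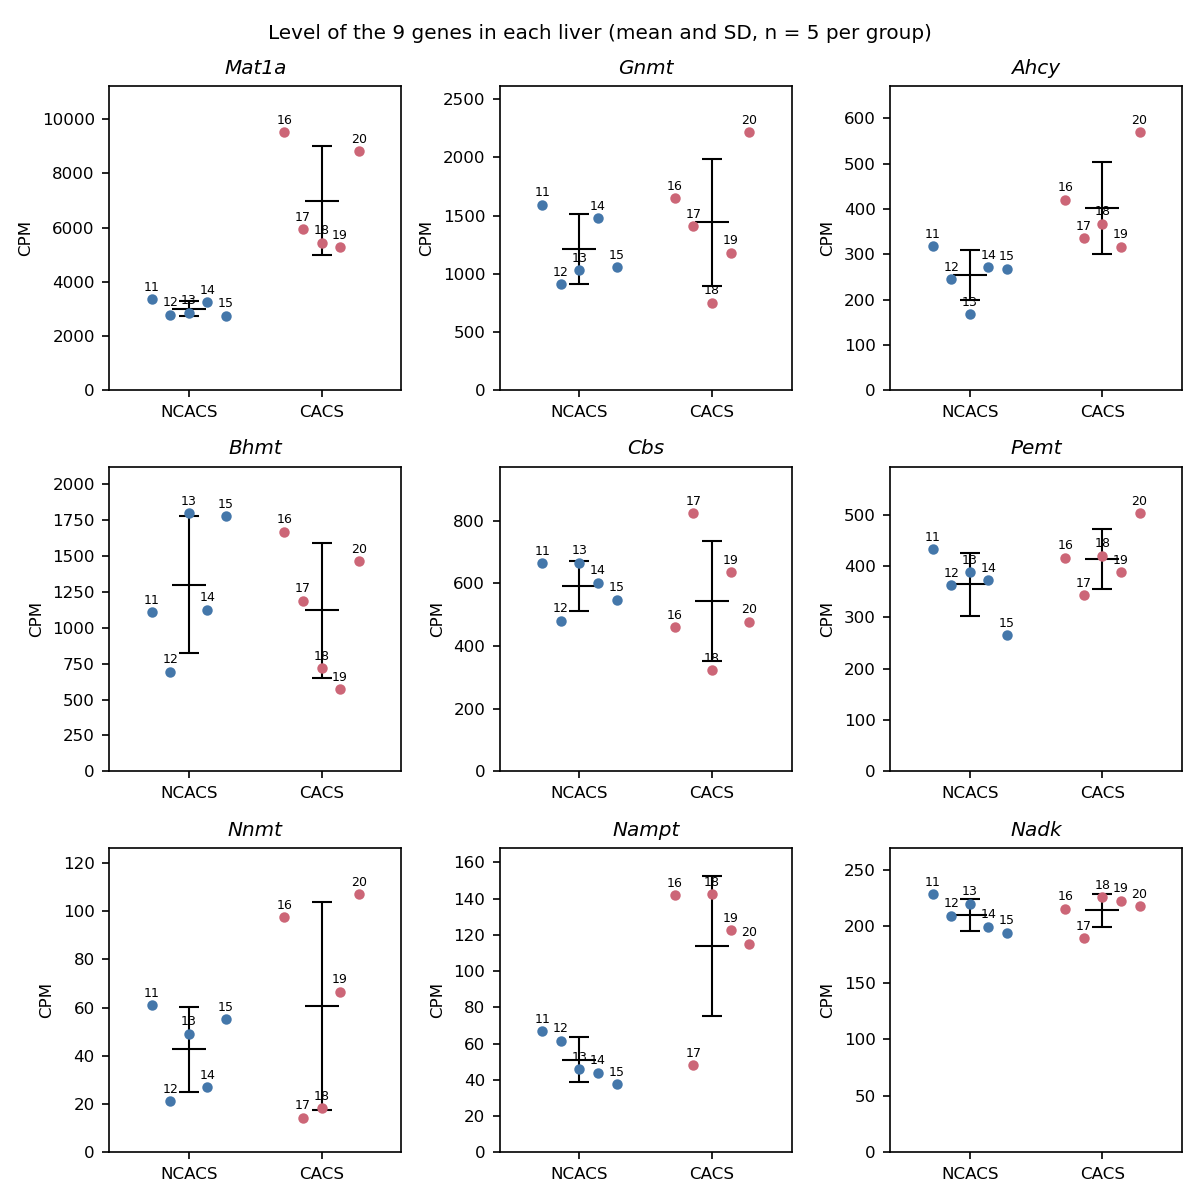
Level of each of the 9 genes in CPM (linear axis from 0), with 1 point per liver labelled by mouse number and bars for the mean and SD of the 5 livers of a group. For Mat1a the 5 CACS livers sit between 5277 and 9502 CPM, all above the NCACS livers, and for Nampt 4 CACS livers lie above the NCACS livers while mouse 17 lies among them.

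Mat1a (ENSMUSG00000037798, chromosome 14 of GRCm38, 41105035 to 41124412, forward strand) encodes the methionine adenosyltransferase of the adult liver. Its level was 3371, 2796, 2863, 3244 and 2756 CPM in NCACS mice 11 to 15 and 9502, 5938, 5443, 5277 and 8813 CPM in CACS mice 16 to 20. The NCACS livers were close together, with a coefficient of variation of 9.37%, whereas the CACS livers fell into a higher pair, mice 16 and 20, and a lower set of 3, which still lay above every NCACS liver. The mean rose from 3006 ± 282 CPM to 6995 ± 2004 CPM (SD, 5 livers each), or 1.22 on the log2 scale (SE 0.197, edgeR adjusted p = 0.0129). A two-sided exact permutation test over all assignments of the livers to groups gave p = 0.00794, the smallest it can give, and 9 such tests were made, 1 for each member. The call held in all 10 fits that each left out 1 mouse, with adjusted p-values between 0.0154 and 0.0320 in edgeR's test, and under each of the 7 other tests, scalings and filters. No run of 100 bases, the read length, in the annotated transcripts of Mat1a occurred in a transcript of another gene. Mat2a, which encodes the form made in most other tissues, had a log2 fold change of 0.24 (edgeR adjusted p = 0.411) at 92.5 CPM in NCACS against 109 CPM in CACS livers.

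Of the methyltransferases among the members, none changed past the threshold. Gnmt (ENSMUSG00000002769, chromosome 17, 46725664 to 46729168, reverse strand), which methylates glycine and is one of the abundant methyltransferases of the liver, had 1592, 910, 1032, 1477 and 1055 CPM in NCACS mice 11 to 15. In CACS mice 16 to 20 it had 1648, 1407, 753, 1182 and 2212 CPM, so the CACS livers spanned the NCACS range, with mouse 18 below it and mice 16 and 20 above. The log2 fold change was 0.25 (95% interval -0.33 to 0.83, edgeR adjusted p = 0.630). Pemt (ENSMUSG00000000301, chromosome 11, 59970614 to 60046489, reverse strand), which makes phosphatidylcholine from phosphatidylethanolamine, was between 265 and 433 CPM in NCACS and between 343 and 502 CPM in CACS livers. Its log2 fold change was 0.18 (95% interval -0.13 to 0.50, edgeR adjusted p = 0.494), with 4 CACS livers inside the NCACS range and mouse 20 above it.

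Nnmt (ENSMUSG00000032271, chromosome 9, 48591877 to 48605153, reverse strand) methylates nicotinamide to N-methylnicotinamide and varied the most of the 9 genes in both groups. Its level was 61.1, 21.2, 49.3, 27.0 and 55.3 CPM in NCACS mice 11 to 15 and 97.5, 14.4, 18.3, 66.6 and 107 CPM in CACS mice 16 to 20. The CACS livers split, with 3 above every NCACS liver and 2, mice 17 and 18, below every NCACS liver. The highest CACS liver had 7.43 times the level of the lowest, against 2.89 times among NCACS livers, and the coefficient of variation was 71.1% and 41.4%. The means of 42.8 ± 17.7 CPM and 60.8 ± 43.2 CPM (SD, 5 livers each) gave a log2 fold change of 0.51 with a 95% interval from -0.64 to 1.66 (edgeR adjusted p = 0.618), so the interval held both a fall and a rise of that size. The log2 fold change was 0.19 with limma-voom, 0.21 without CACS mouse 20 and 0.76 without CACS mouse 17. Every liver had at least 549 counts of Nnmt, so counting error was small beside the spread between mice.

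**Figure D2:**
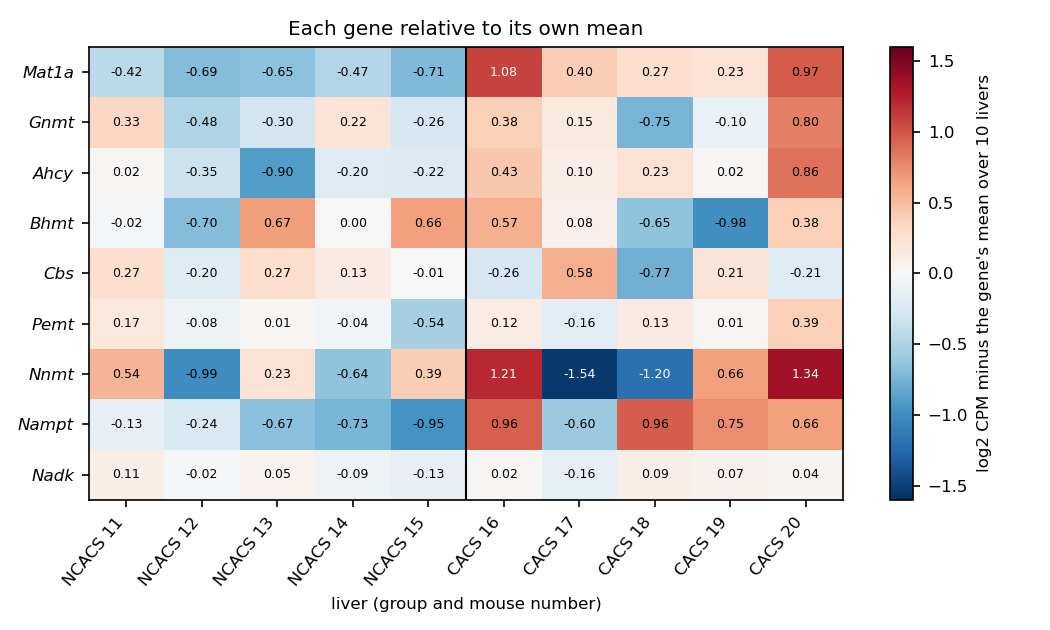
Log2 CPM of each gene in each liver minus the mean of that gene over the 10 livers, on a colour scale from -1.6 to 1.6, with NCACS livers left of the line and CACS livers right of it. Mat1a is below its mean in all 5 NCACS livers and above it in all 5 CACS livers, and the row of Nnmt holds both its lowest value (-1.54, mouse 17) and its highest (1.34, mouse 20) among CACS livers.

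Ahcy (ENSMUSG00000027597, chromosome 2, 155059310 to 155074497, reverse strand) encodes the hydrolase that splits S-adenosylhomocysteine, and much of its sequence is shared with a near-identical copy. Of the 2769 runs of 100 bases in its annotated transcripts, 1647 also occurred in the transcripts of Gm4737 (ENSMUSG00000048087, chromosome 16, 46152985 to 46155077, reverse strand), annotated as protein coding, and 574 in Gm9826, a processed pseudogene. The open reading frames of Ahcy and Gm4737, each 1299 bases long, were identical at 1295 bases. A stretch of 60 bases, from base 415 to base 474 of each reading frame, is shown because the values of Ahcy rest on how reads from such sequence were assigned, and the 2 bases that differ are in capitals.
Ahcy: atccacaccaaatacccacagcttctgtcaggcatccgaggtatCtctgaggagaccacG
Gm4737: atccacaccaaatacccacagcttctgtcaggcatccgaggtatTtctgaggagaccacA

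Ahcy was given 318, 246, 168, 272 and 268 CPM in NCACS mice 11 to 15 and 420, 336, 367, 317 and 569 CPM in CACS mice 16 to 20. All CACS livers except mouse 19 lay above every NCACS liver, and mouse 19 lay just below NCACS mouse 11. The log2 fold change was 0.66 (SE 0.195, unadjusted p = 0.00559, edgeR adjusted p = 0.0806), short of the threshold, and the exact permutation test gave p = 0.0159. DESeq2 gave an adjusted p of 0.0175, and 9.8% of all genes were called by that tool. Gm4737 followed Ahcy from liver to liver, with 183 ± 45.0 CPM in NCACS against 299 ± 87.6 CPM in CACS livers (SD, 5 livers each) and a log2 fold change of 0.71 (edgeR adjusted p = 0.0970). With the counts of Ahcy and both copies added up, an alternative chosen after the data were seen, the level was 437 ± 98.3 CPM in NCACS against 700.5 ± 188 CPM in CACS livers (SD, 5 livers each). The log2 fold change of that sum was 0.68 (edgeR adjusted p = 0.0897), and Ahcy made up between 55.6 and 60.7% of it in every liver. Any reads from shared sequence that were given to no gene are missing from the sum.

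**Figure D3:**
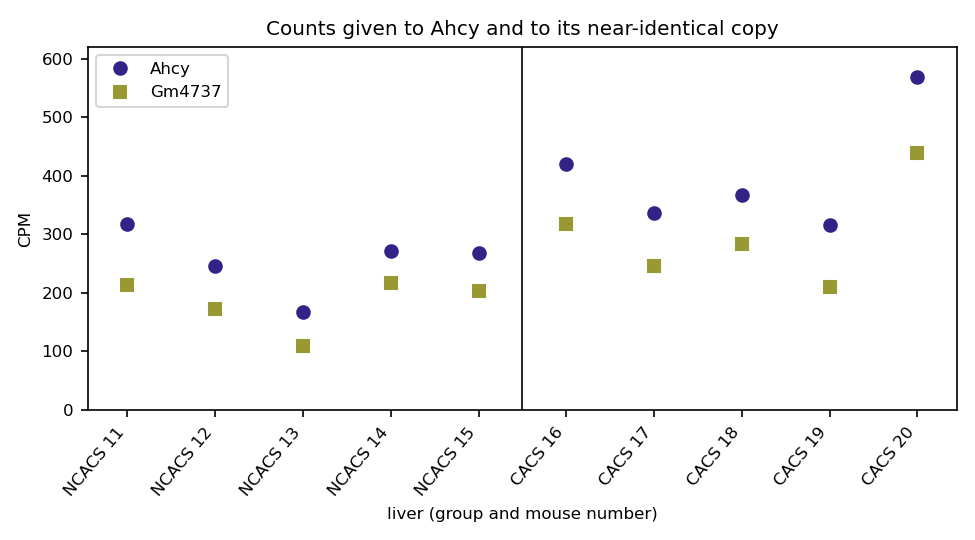
CPM of Ahcy (circles) and of its near-identical copy Gm4737 (squares) in each of the 10 livers, with NCACS livers left of the line and CACS livers right of it. Both are lowest in NCACS mouse 13 and highest in CACS mouse 20, at 569 CPM for Ahcy and 438 CPM for Gm4737.

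The enzymes that use homocysteine did not change past the threshold. Bhmt (ENSMUSG00000074768, chromosome 13, 93616675 to 93637961, reverse strand) was between 693 and 1795 CPM in NCACS and between 571 and 1667 CPM in CACS livers, with a log2 fold change of -0.21 (95% interval -0.93 to 0.51, edgeR adjusted p = 0.757). Bhmt also has near-identical copies, but they took little of the counts, since Bhmt held at least 99.3% of the sum in every liver. Its annotated antisense gene Gm15622 shares 187 exonic bases with it and had at most 329 counts in a liver, against at least 20267 for Bhmt. Cbs (ENSMUSG00000024039, chromosome 17, 31608894 to 31637238, reverse strand) was between 481 and 665 CPM in NCACS livers. Among CACS livers it ranged from 323 CPM in mouse 18 to 823 CPM in mouse 17, wider than the NCACS range on both sides, with coefficients of variation of 35.2% and 13.3%. The log2 fold change of Cbs was -0.12 (95% interval -0.60 to 0.36, edgeR adjusted p = 0.790), and it turned to 0.02 without CACS mouse 18.

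Nampt (ENSMUSG00000020572, chromosome 12, 32819545 to 32853349, forward strand) encodes the enzyme that joins nicotinamide to phosphoribosyl pyrophosphate, and its gene is known as a target of the circadian clock through E-boxes. Its level was 66.8, 61.6, 45.7, 44.0 and 37.7 CPM in NCACS mice 11 to 15 and 142, 48.2, 142, 122 and 115 CPM in CACS mice 16 to 20. The CACS livers of mice 16, 18, 19 and 20 lay well above all NCACS livers, whereas mouse 17 sat inside the NCACS range. The mean rose from 51.2 ± 12.4 CPM to 114 ± 38.6 CPM (SD, 5 livers each), or 1.15 on the log2 scale (SE 0.265, edgeR adjusted p = 0.0375, exact permutation p = 0.0238). Without CACS mouse 17 the log2 fold change was 1.35 (edgeR adjusted p = 0.00441). The call was lost in each of the other 9 fits without 1 mouse, with log2 fold changes between 1.06 and 1.27 and adjusted p-values between 0.0563 and 0.0799 in edgeR's test, and with limma-voom (1.10, adjusted p = 0.0523), where 3.6% of all genes were called.

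The clock genes stood apart in NCACS mouse 15, the liver with the lowest Nampt. Dbp, an output gene of the clock, was at 1.27 CPM there and between 52.1 and 82.9 CPM in the other NCACS livers, and Arntl, a core activator, was at 33.8 CPM against at most 7.21 CPM. Per1, Per2 and Per3 were there at 5.84, 6.64 and 2.50 CPM, each the lowest of the 10 livers. In the other NCACS livers Per1 was between 27.4 and 66.8 CPM and Per2 between 25.8 and 51.7 CPM. The group differences of clock genes given next include mouse 15 and are not given without it. Between the groups, Per1, Per2 and Cry1, repressors of the clock, had log2 fold changes of 1.23, 1.21 and 1.02 (edgeR adjusted p = 0.177, 0.128 and 0.123). Nr1d1, a nuclear receptor that represses Arntl, had -1.65 (edgeR adjusted p = 0.0930). Arntl and Dbp had -1.13 and -0.85 (edgeR adjusted p = 0.466 and 0.508). The log2 fold changes of Per3, Cry2, Clock and Nr1d2 lay between -0.33 and 0.15. In CACS mouse 17, the CACS liver with the lowest Nampt, Per1 was at 131 CPM, the highest of the 10 livers. The repressors Per2, Per3 and Cry1 were there at 44.0, 36.7 and 6.11 CPM, each the lowest among CACS livers. Nr1d2 and Clock were there at 87.3 and 30.7 CPM, each the highest among CACS livers. Nr1d1, at 72.29 CPM in mouse 17, was level with CACS mouse 19 at 72.26 CPM, a liver with high Nampt. Cry2, Dbp and Arntl lay inside the range of the other CACS livers. None of the 10 clock genes examined passed the threshold between the groups. Without NCACS mouse 15 the log2 fold change of Nampt was 1.07 (edgeR adjusted p = 0.0748). The part of the clock in the level of Nampt was not tested.

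The 250 bases before the RefSeq start of Nampt (build GRCm38.p6, chr12:32820085-32820334, forward strand) are shown because Nampt is the member with both a rise and a known clock motif. They were searched on both strands for the E-box CACGTG, the STAT motif TTCNNNGAA and the cyclic AMP response element TGACGTCA, whose matches would stand in capitals.
Nampt: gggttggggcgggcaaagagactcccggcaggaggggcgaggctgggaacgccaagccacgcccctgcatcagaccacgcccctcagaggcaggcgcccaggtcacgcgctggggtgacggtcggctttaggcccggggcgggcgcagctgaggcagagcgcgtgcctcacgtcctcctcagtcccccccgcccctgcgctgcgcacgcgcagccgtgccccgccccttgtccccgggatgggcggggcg

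None of the 3 motifs occurred in this window, 75.6% of whose bases are G or C, which says only that these letters are not in these 250 bases. The window lies inside the gene span given above, which begins at 32819545, so the bases before that annotated start were not searched. RefSeq windows were found for 7 members, 9 windows in all, and not for Mat1a and Nnmt. An E-box stood in the window of Cbs and in 1 of the 2 windows of Nadk, and 6.02% of all 32851 windows held at least 1. The STAT motif stood in 1 of the 2 windows of Pemt and in 7.02% of all windows, and no member window held the cyclic AMP response element, which 1.55% of all windows did. The 2 windows of Pemt and the Nadk window with the E-box also lie inside the spans given for these genes. Most of the Bhmt window, 93637759 to 93638008, lies inside its span, which ends at 93637961. The windows of Gnmt and Cbs and the other window of Nadk overlap their spans by a smaller part.

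Nadk (ENSMUSG00000029063, chromosome 4, 155562378 to 155591001, forward strand), the cytosolic NAD kinase, was the steadiest member. It was between 194 and 228 CPM in NCACS and between 189 and 226 CPM in CACS livers, with coefficients of variation of 6.68 and 6.76%. The log2 fold change was 0.03 with a 95% interval of -0.17 to 0.22 (edgeR adjusted p = 0.896), the narrowest of the 9.

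**Figure D4:**
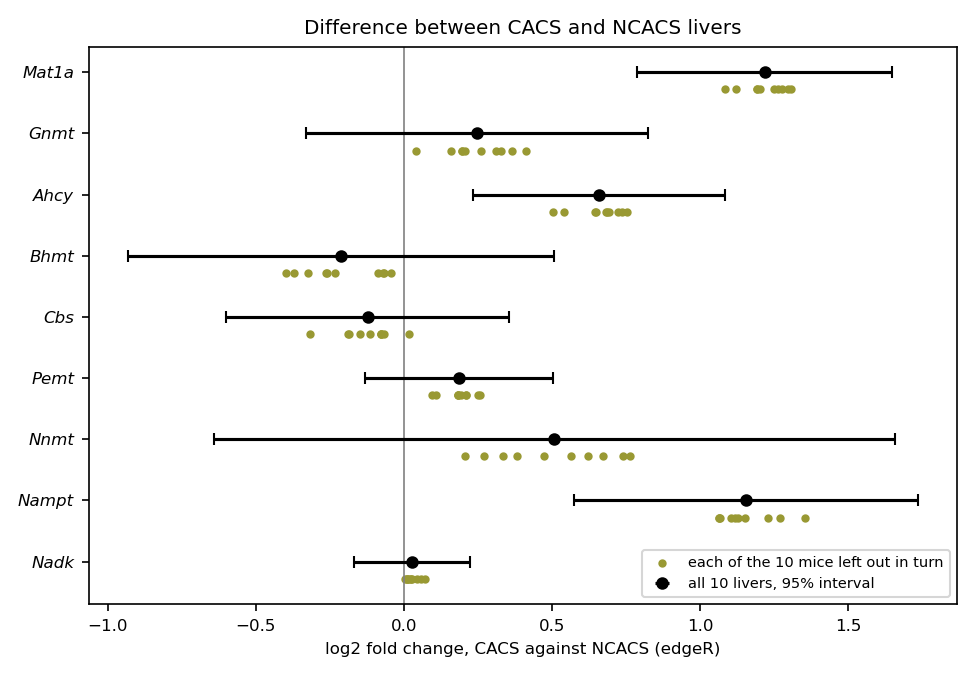
Log2 fold change of each gene in CACS against NCACS livers from edgeR, with its 95% interval (black, 10 livers), above the values with each mouse left out in turn (small points). The intervals of Mat1a, Ahcy and Nampt lie above 0, that of Nnmt is the widest, from -0.64 to 1.66, and the points of Cbs lie on both sides of 0.

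Ratios of members within a liver, which do not depend on the scaling between livers, were compared for 4 pairs. The log2 ratio of Nampt to Nnmt counts was 0.34 ± 0.81 in NCACS and 1.24 ± 1.13 in CACS livers (SD, 5 livers each), a difference of 0.90 (two-sided exact permutation p = 0.190, adjusted over the 4 ratios 0.762). It was highest in CACS mouse 18, at 2.95, where Nampt was high and Nnmt low, and the groups overlapped. Nnmt relative to Gnmt differed by -0.005 between the groups (exact permutation p = 1). Pemt relative to Gnmt differed by -0.002 (exact permutation p = 1) and Bhmt relative to Cbs by -0.06 (exact permutation p = 0.889). The CACS livers were more spread than the NCACS livers in each of the 4 ratios, with SDs of 0.53 to 1.13 against 0.32 to 0.81, a difference in spread that was not tested.

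The livers were not high or low in all members together. CACS mouse 20 had the highest level of 4 members, Gnmt, Ahcy, Pemt and Nnmt, and NCACS mouse 15 the lowest level of 3, Mat1a, Pemt and Nampt. CACS mouse 18 had the lowest Gnmt and Cbs but the highest Nampt, and CACS mouse 17 the lowest Nnmt and Nadk but the highest Cbs. The likeness of 2 profiles was measured as the root mean square difference of log2 CPM over the 10 livers after each gene was centred on its mean, where a smaller value means more alike. Among the members the closest pair was Pemt and Nadk (0.177), which both varied little, followed by Mat1a and Ahcy (0.354), and the farthest was Bhmt and Nampt (1.07). These values describe 10 livers that share their groups, and no test was made.

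Levels of different genes were compared per kilobase of annotated exon. In NCACS livers Gnmt had the highest mean level per length, 1006 ± 250 CPM per kilobase (SD, n = 5), and Mat1a followed with 867 ± 81.2 CPM per kilobase, in ranges that overlapped. In CACS livers Mat1a came first with 2017 ± 578 CPM per kilobase and Gnmt second with 1195 ± 450 CPM per kilobase, again in overlapping ranges. Mat1a lay above Gnmt in 1 of 5 NCACS livers and in 5 of 5 CACS livers. Below them, Bhmt and Pemt overlapped in both groups, at means between 173 and 226 CPM per kilobase. Ahcy, Cbs, Nadk and Nnmt followed in that order in both groups. The range of Ahcy reached into those of Bhmt and Pemt in CACS livers. Ahcy and Cbs overlapped in NCACS livers only, whereas Cbs and Nadk, and Nadk and Nnmt, overlapped in CACS livers only. Nampt had the lowest mean level per length in both groups, 10.1 ± 2.45 and 22.5 ± 7.64 CPM per kilobase (SD, 5 livers each), and its range overlapped that of Nnmt in CACS livers. The length is that of all annotated exons of a gene. The value for Ahcy leaves out the reads given to its copies and any reads from shared sequence that were given to no gene.

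Genes that act beside the members were counted in 8 lists, of which 102 of 106 genes were tested. Over all lists 3 genes were higher and 2 lower past the threshold, 4.90% of those tested against 3.8% of all genes. The fold change was above 0 for 39 and below 0 for 63, with a median of -0.08. Over all genes tested it was above 0 for 49.4%, with a median of -0.01, and the lean of the lists was not tested. DESeq2, which called 9.8% of all genes, called 5 higher and 9 lower, and limma-voom, which called 3.6% of all genes, 3 higher and 1 lower. Prmt1 and Pnp had no matching row, and Nmnat2 and Nmrk2 were removed by the filter.

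In transsulfuration and cysteine use, 1 of 10 genes was lower and none higher. Ethe1, the mitochondrial persulfide dioxygenase that acts in sulfide oxidation, fell from 77.2 ± 17.8 CPM to 28.7 ± 13.1 CPM (SD, 5 livers each) with no overlap between the groups (log2 fold change -1.42, edgeR adjusted p = 0.0220). Its call held in 9 of the 10 fits without 1 mouse. Of the 12 genes of the methionine cycle and methionine salvage none passed, and the largest fold change was that of Mri1, a salvage enzyme, at 0.65 (edgeR adjusted p = 0.0881).

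Among 11 other methyltransferases tested, 1 was higher and 1 lower. As3mt, which methylates arsenic, rose from 16.5 ± 8.41 CPM to 45.0 ± 12.7 CPM (SD, 5 livers each), or 1.45 on the log2 scale (edgeR adjusted p = 0.0359). Gamt, the last enzyme of creatine synthesis and a large user of S-adenosylmethionine in the liver, fell from 173 ± 31.0 CPM to 109 ± 23.3 CPM (SD, 5 livers each), or -0.67 on the log2 scale (edgeR adjusted p = 0.0494). Each of these calls held in 2 of the 10 fits without 1 mouse, and that of Gamt in 3 of the 7 other settings.

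Of the 16 folate genes reported here, 1 was higher and none lower. Mthfd1l, the mitochondrial formate-producing synthetase, rose from 1.44 ± 0.656 CPM to 3.88 ± 0.435 CPM (SD, 5 livers each), or 1.42 on the log2 scale (edgeR adjusted p = 0.0255), and its call held in 7 of the 10 fits without 1 mouse. The groups did not overlap for this gene. None of the 12 genes of choline, betaine and phosphatidylcholine synthesis passed, with 10 of 12 fold changes below 0, and the largest was that of Chpt1, a cholinephosphotransferase, at -0.37 (edgeR adjusted p = 0.207). None of the 10 polyamine genes passed either, and the largest fold change there was 0.46 for Odc1, the first enzyme of polyamine synthesis (edgeR adjusted p = 0.145).

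Of 15 genes of NAD synthesis and phosphorylation tested, 1 was higher and none lower. Slc25a51, the mitochondrial NAD transporter, rose from 65.2 ± 8.87 CPM to 110 ± 27.2 CPM (SD, 5 livers each), or 0.76 on the log2 scale (edgeR adjusted p = 0.0359), which held in 1 of the 10 fits without 1 mouse. The other fold changes of this list were mostly below 0, 10 of 15 in all, with a median of -0.23. None of the 16 NAD consumers and enzymes of N-methylnicotinamide oxidation passed, and among those averaging 5 CPM or more Aox3 had the largest fold change, Aox3 being an aldehyde oxidase that acts on N-methylnicotinamide. Its level was 844 ± 157 CPM in NCACS against 471 ± 226 CPM in CACS livers (SD, 5 livers each), or -0.84 on the log2 scale (edgeR adjusted p = 0.128).

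**Figure D5:**
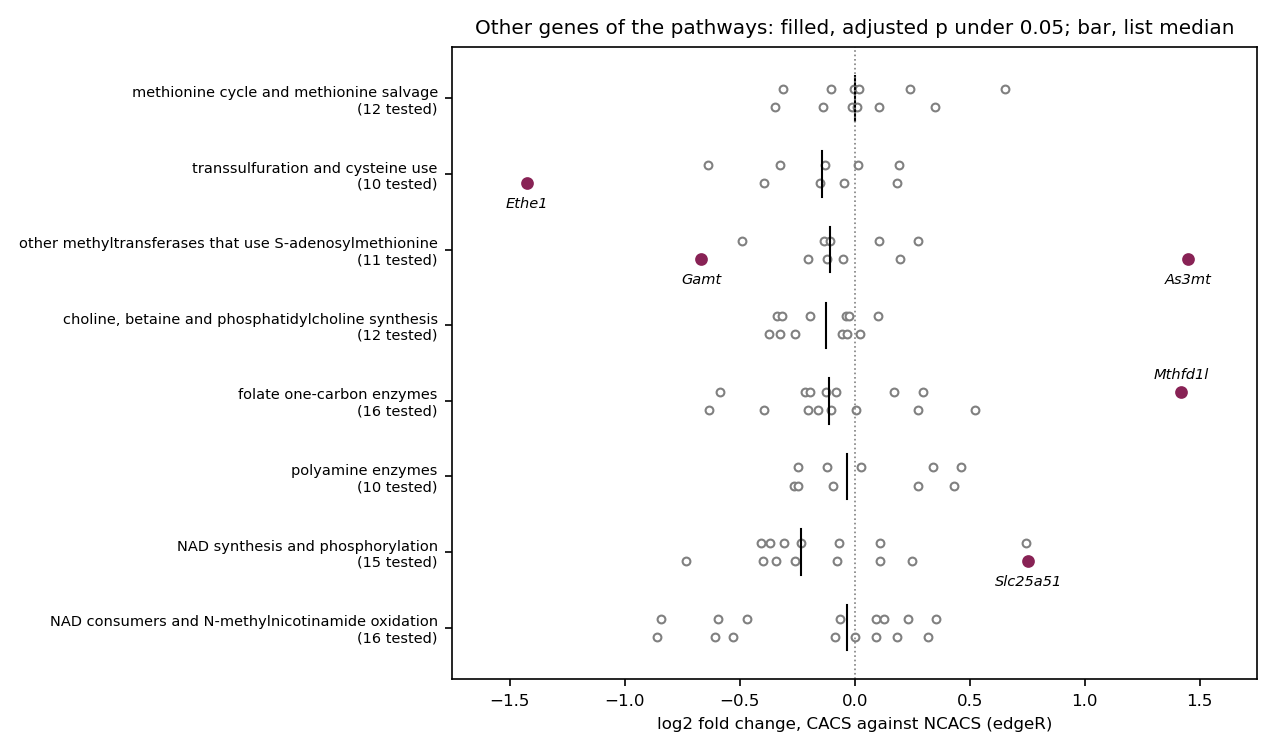
Log2 fold change (edgeR) of each tested gene of the 8 lists in CACS against NCACS livers, 1 point per gene and 1 row per list, with genes past the adjusted threshold named and the list median marked. Of the 102 genes, 63 lie below 0 and 39 above, and the 5 named genes run from Ethe1 at -1.42 to As3mt at 1.45.

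The genes whose profile over the 10 livers was most like that of each called member were taken from 9234 genes with a mean of at least 5 CPM. For Mat1a they were Rbm3, which encodes a cold-inducible RNA-binding protein (root mean square difference 0.186), Ptp4a1, a protein tyrosine phosphatase (0.226), and Fendrr, a long noncoding RNA (0.252), where Mat1a itself varied by 0.647 about its mean. For Nampt they were Wnt5b, a Wnt ligand (0.218), Tspan4, a tetraspanin (0.280), and Rgs3, a regulator of G protein signalling (0.281), where Nampt varied by 0.718. The likeness of these genes includes the difference between the groups, since it was computed over both.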

How the data were processed

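RNA from 10 livers was sequenced as stranded poly(A) libraries with single-end reads of 100 bases. The deposited table holds read counts per Ensembl gene on GRCm38, which the authors left without scaling. Their processing notes name STAR 2.4.1d, HTSeq 0.6.1 and DESeq2. The annotation release and the strand setting are not given in the sources used here, so antisense and near-identical genes are uncertain. GENCODE M21 gave symbols and positions and lacked 1167 of the 43629 identifiers, 75 of them among those tested. Promoter windows came from RefSeq on GRCm38.p6.

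The filter was filterByExpr, the scaling TMM and the test that of edgeR 4.0.16, beside limma 3.58.1, DESeq2 1.42.0, R 4.3.3, Python 3.11.15, SciPy 1.17.1 and Biopython 1.88. Log2 CPM and the ratios added a prior count of 2. Intervals are 95% intervals of the fit. Livers differed from each other beyond sampling noise, with a chi-square of at least 46.1 per degree of freedom within groups. Mouse numbers are those of the labels. The edgeR p-values compare the difference between groups with the spread between mice, which edgeR estimates with information from all genes. The permutation p-values compare it with other assignments of the same livers to groups. In a simulation over 13981 genes, 200 of them changed 4-fold, edgeR made 192 calls, recovered 184 and had 4.17% false calls, DESeq2 made 230 and had 17.8%, and limma-voom made 196 and had 5.10%. The largest fold of means among the members was 2.33, and no change that small was simulated, so recovery at that size is not known.

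The members and lists were chosen with earlier results of these data known. An item of the lists and 1 of the model's alleles are not reported here. Named beside the members were list genes past the threshold, in lists with none the gene of largest fold change with a mean of at least 5 CPM, and the 3 most alike genes of each called member. Mat2a and the near-identical copies were named after their values were seen. The results were recomputed with DESeq2, limma-voom, 3 other scalings (RLE, upper quartile, library totals), without the filter, with at least 10 counts required per liver, at a threshold of 0.01, with other pseudocounts and without each mouse in turn.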

Additional observations from a re-analysis of the deposited data

Results flagged for a closer look

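Every member and ratio was searched, within each group of 5 livers, for a liver lying apart, 26 searches in all. Dixon's 95% critical value was passed by 2 of them, and chance passes about 1 in 20. Both concern CACS mouse 17. For Nampt log2 CPM in CACS livers the gap over the range was 0.803, with mouse 17 at 48.2 CPM and the other CACS livers between 115 and 142 CPM. For Nadk log2 CPM in CACS livers it was 0.734, with mouse 17 at 189 CPM and the others between 215 and 226 CPM.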

How the results depend on the processing

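No paired analysis was possible because no mouse number occurs in both groups. For the changes given here the cause was not tested. Genes past the threshold numbered 538 (267 higher, 271 lower). DESeq2 gave 1386 (672 higher, 714 lower), no filter 173 higher, and a threshold of 0.01 by construction 34 (14 higher, 20 lower). Leaving out each mouse gave 178 to 519 genes, 79 to 246 of them higher and 96 to 273 lower, the fewest without NCACS mouse 11. Of the members, 2 were higher, against 1 with limma-voom, 0 at a threshold of 0.01, and 1 to 2 with each mouse left out. By edgeR, DESeq2 and limma-voom 0 members were lower, and 0 members with a fold change below 0 had an unadjusted p under 0.05 in edgeR. With each mouse left out, Mat1a ranged from 1.08 to 1.31, Nampt from 1.06 to 1.35, Ahcy from 0.50 to 0.75, Gnmt from 0.04 to 0.41, Nnmt from 0.21 to 0.76, Pemt from 0.09 to 0.26, Nadk from 0.003 to 0.072, Bhmt from -0.40 to -0.04 and Cbs from -0.318 to 0.0176, the last being without CACS mouse 18. In the same fits Nnmt relative to Gnmt ranged from -0.221 to 0.419, Pemt relative to Gnmt from -0.222 to 0.102, Bhmt relative to Cbs from -0.274 to 0.230 and Nampt relative to Nnmt from 0.473 to 1.20, and none passed. Every liver had at least 549 counts of each member, so the spread between mice limited the comparisons more than depth did.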
